A study of Oryzias latipes with 7 samples.

Results

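Medaka (Oryzias latipes) is a small fish that spawns every day under long days. Its isolated ovarian follicles were compared at 23 h and 14 h before spawning with follicles at 47 h, 35 h and 32 h before spawning. The comparison uses 5 of the 7 arrays of the series, placed on a side by their developmental stage labels. It was chosen with earlier results of these data known. The 8 h and 2 h arrays were left out of the comparison itself. They entered the filter on low values described below and are used to follow the probe sets later on. Every array carries total RNA of 100 follicles isolated from females kept at 27 °C with 14 h of light a day, with no treatment or mutation named in the labels, hybridised in 1 colour (Cy3) to a NimbleGen expression array. Each time point has 1 array, so the 2 arrays of the later side and the 3 of the earlier side are neighbouring stages and not replicates. The age of the females is not given in the labels, and an array mixes the oocyte with the cells around it. Each array has 1 time before spawning and spawning is daily. The 23 h and 14 h follicles may therefore be the largest of the ovary and those at 47, 35 and 32 h the second-largest. Side and size class cannot be told apart here.

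In a growing medaka follicle the oocyte takes up vitellogenin, a yolk precursor made in the liver, while granulosa and theca cells around it answer follicle-stimulating hormone and make oestradiol. A surge of luteinizing hormone then ends this growth phase. The granulosa cells turn from oestradiol to a progestin that lets the oocyte resume meiosis, and proteases later open the follicle wall for ovulation. The series title names late vitellogenesis, oocyte maturation and the time before ovulation as the stages covered, and the question here is how far follicles at 23 h and 14 h already differ from those 9 h or more earlier.

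Expression was read as RMA intensity, a background-corrected and normalized brightness for a group of probes against 1 transcript, here called a probe set. Of 63698 probe sets on the array, 47773 had a mean log2 intensity over all 7 arrays above the 25th percentile (6.24, an intensity of 75.8) and were kept. The probe set just inside that limit averaged 6.24402 and the one just outside it 6.24394. Among the 15925 left out, 20 would have counted as separated upward and 11 downward by the rule described below. None of the identifiers matched the reference gene table used here, so probe sets are given by identifier, gene functions are not, and markers of follicle and other cell types could not be looked up. Counts are of probe sets and not of genes, since several may target 1 transcript. In RNA of whole follicles, a fall in intensity through fewer cells of a type cannot be told apart from one through less RNA per cell.

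The deposited sources disagree on the time of some arrays, and this bears on every result. The series table holds the same arrays value for value, but only 2 of the 7 stand under the time of their own file. There, the array filed under 23 h stands at 35 h and the one filed under 14 h at 32 h, while the arrays filed under 35 h and 32 h stand at 2 h and 14 h. The files of the single arrays were followed here. Under the table's times the comparison finds next to nothing: 17 probe sets were separated upward and 17 downward, 0 of them among those described below, and limma called 0 (4937 at an unadjusted p below 0.05). A further division runs through the arrays, since those at 23 h, 14 h and 47 h have 6-digit numbers and those at 35 h and 32 h have 8-digit numbers. Values within the 6-digit arrays are given beside the results for this reason.

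Across probe sets, the sides stood slightly further from each other than the arrays within a side. Pearson r was 0.957 between 23 h and 14 h and 0.955 to 0.976 among 47 h, 35 h and 32 h, against 0.873 to 0.948 over the 6 pairs that cross the sides. The closest pair across the sides was 23 h with 47 h, which are 24 h apart and so at the same time of day, and which share the 6-digit series. Most of the transcriptome moved little: in 40966 probe sets (85.8%) the means of the sides differed by less than 2-fold, and the median log2 difference, later minus earlier, was -0.04. Probe sets within an array are not independent, and no test was made of these correlations.

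A minority changed strongly. Limma, fitted over the 5 arrays with Benjamini-Hochberg adjustment over all 47773 probe sets, called 923 higher at 23 h and 14 h (1.93%) and 726 lower (1.52%) at an adjusted p below 0.05. The median log2 difference was 2.29 among those called higher and -2.13 among those called lower. These p-values set the difference between the sides against the spread of neighbouring stages within them, with 3 residual degrees of freedom. Limma moderates that spread by a prior pooled over all probe sets, which adds 2.75 degrees of freedom. The p-values do not measure replicate error. When the fit held a term for the array-number series, limma called 12 higher and 4 lower. The 47 h array is then the only one that stands for the earlier side, and 2 residual degrees of freedom remain. How far the fall in calls comes from this or from a difference between the series was not tested. Without the 47 h array it called 2795 and 1821, and without the 14 h array 100 and 43. Leaving out the 35 h array gave 179 and 119 calls, and leaving out the 32 h array gave 282 and 223. With the 47 h array left out, the sides coincide with the array-number series, and that count cannot tell side and series apart. The number of calls therefore rests on single arrays, and a stricter rule of size was used to pick the probe sets described below.

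A probe set was taken as separated when even its nearest arrays across the sides lay at least 4-fold apart, that is, when all 6 pairs of arrays differed by 4-fold in the same direction. By this rule 394 probe sets (0.825%) were higher at 23 h and 14 h and 235 (0.492%) were lower, with no test attached. Limma called 343 of the 394 and 224 of the 235 at an adjusted p below 0.05. This overlap is largely built in, since rule and test read the same difference on the same arrays. The rule implies a 4-fold difference from the 47 h array of the same array-number series and, at 23 h, of the same time of day. The edge of the rule is not a natural break: 37 upward and 37 downward probe sets fell just short, with nearest arrays 1.9 to 2.0 log2 units apart, while 32 and 19 lay just inside, at 2.0 to 2.1.

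**Figure D1:**
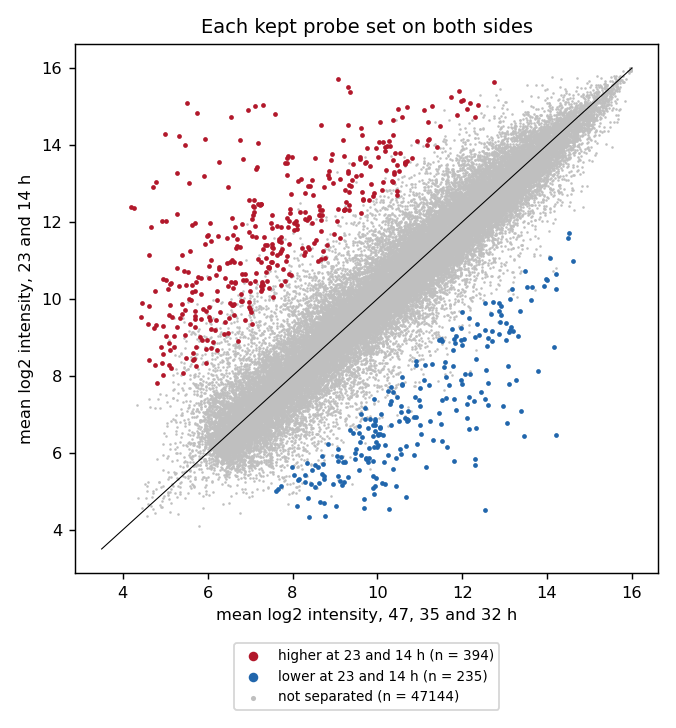
Mean log2 RMA intensity of each of the 47773 kept probe sets at 23 and 14 h (vertical axis) and at 47, 35 and 32 h (horizontal axis), with the line of equal level. The 394 separated probe sets higher at 23 and 14 h lie above the cloud and the 235 lower ones below it, mostly in the lower and middle range of intensity.

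Very large changes were mostly upward. A separation of at least 16-fold was seen in 63 probe sets upward and 25 downward, and of at least 64-fold in 21 and 3. At 256-fold or more there were 4 upward and 0 downward. Some of the separated probe sets ran between the bottom of the intensity range and a level above 1000. The median of all kept probe sets was 1555 to 1669 on the 5 arrays. In 83 of the 394, all 3 earlier arrays lay below the filter's limit of 75.8. Of these, 23 exceeded 1000 at both 23 h and 14 h, and 5 exceeded 10000. Among the 235, both later arrays lay below the limit in 66, of which 5 had exceeded 1000 on all 3 earlier arrays and 0 had exceeded 10000. The filter read the mean over all arrays of the series. A probe set this dark on a whole side could therefore pass it only through higher values on the other arrays. The counts of 83 and 66 are shaped by this, and separated probe sets left out by the filter are not in them. Over all kept probe sets, each array taken singly, 3.07% to 3.41% lay below the limit at 47, 35 and 32 h. At 23 h and 14 h these shares were 3.37% and 3.60%. Such low values have no detection call, so folds against them depend on how RMA treats dim probes. With an offset of 64 added before the logarithm, the separated counts fell to 315 and 161.

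The largest upward change belonged to OLAT0001S00034827. Its intensity was 32936 at 23 h and 36571 at 14 h, against 41.7, 54.2 and 42.7 at 47, 35 and 32 h. Its nearest arrays across the sides lay 608-fold apart. The mean log2 difference was 9.56 ± 0.21 (moderated SE of limma over 5 arrays, as for each SE below, limma adjusted p = 0.00036). Probe set K_OLAT0000S00007135 ran the same course, with 29347 and 29179 at 23 h and 14 h and 58.2, 57.4 and 46.0 at 47, 35 and 32 h. Both were already close to their 14 h level at 23 h. They also remained among the calls when the array-number series was a term (limma adjusted p = 0.030 for each).

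Several others were as dark on the earlier arrays but brighter at 14 h than at 23 h. OLAT0001S00034528 had 13231 at 23 h and 30025 at 14 h, against 26.2, 33.0 and 36.9 at 47, 35 and 32 h. K_OLAT0000S00002529 gave 10564 and 25272 on the later arrays and 39.8, 42.3 and 51.0 on the earlier ones. K_OLAT0000S00013756 measured 16181 and 22573, against 41.7, 30.2 and 49.9. In these 3 the nearest arrays across the sides lay 207-fold or more apart and the step from 23 h to 14 h is small beside that. A steeper rise within the later side was seen in OLAT0001S00014300, with 4401 at 23 h and 16184 at 14 h, and in OLAT0001S00030650, with 2418 and 11593. The earlier arrays of these 2 lay at 24.4 to 32.3 and at 16.6 to 20.9. OLAT0001S00034849 had 2024 at 23 h and 29001 at 14 h, against 28.8, 30.3 and 21.0 at 47, 35 and 32 h. Their limma adjusted p ran from 0.00115 (K_OLAT0000S00013756) to 0.0235 (OLAT0001S00034849), and being called was a condition for a place among the 12 largest differences.

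K_OLAT0000S00022587 stayed at a lower ceiling. It had 5262 and 5433 at 23 h and 14 h, against 18.1, 21.6 and 15.9 at 47, 35 and 32 h, a mean log2 difference of 8.18 ± 0.21 (SE; limma adjusted p = 0.000521). The last 3 of the 12 largest upward differences varied more within the earlier side. OLAT0001S00011319 had 21282 and 34191 on the later arrays, against 86.7, 39.2 and 247.0 on the earlier ones. K_OLAT0000S00014196 had 12133 and 27493, against 133.1, 37.5 and 46.9. OLAT0001S00033367 had 23148 and 41117, against 40.6, 189.7 and 239.7. In each, the lowest later array still exceeded the highest earlier one by 86.2-fold or more.

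**Figure D2:**
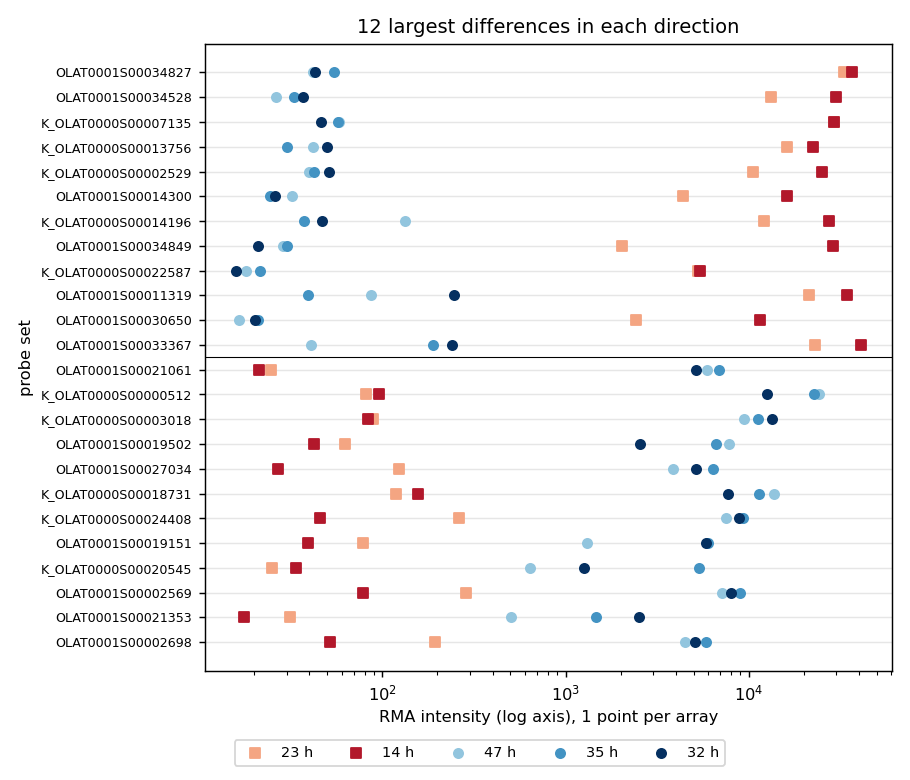
RMA intensity (log axis) of the 12 probe sets with the largest mean difference upward (above the line) and downward (below it), with 1 point for each array: squares for 23 and 14 h, circles for 47, 35 and 32 h. The sides do not overlap in any row, and in OLAT0001S00034827 the later arrays read 32936 and 36571 while the earlier ones stay under 55.

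Upward changes were not limited to transcripts that started dark. In 33 of the 394, all 3 earlier arrays already exceeded 1000. That level lies under the median of all kept probe sets on those arrays, 1555 to 1669. The share of all kept probe sets above it was not counted. Of all 47773 kept probe sets, 5385 exceeded 10000 at 23 h and 5429 at 14 h, each array taken singly. In 67 of the 394, both later arrays exceeded 10000, whatever the level they started from. The brightest by the mean over the 5 arrays was K_OLAT0000S00022766, with 50925 and 51026 at 23 h and 14 h, against 10729, 3444 and 8944 at 47, 35 and 32 h (log2 difference 2.88 ± 0.51, SE; limma adjusted p = 0.0463). OLAT0001S00018517 had 33488 and 36310, against 3791, 3448 and 7671 (limma adjusted p = 0.0245). K_OLAT0000S00014380 had 34464 and 32563, against 7187, 2646 and 7652, and did not pass the test (limma adjusted p = 0.0527). In all 3 the 35 h array was the lowest of the earlier side, and the 23 h and 14 h arrays lay close together.

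The largest downward change was that of OLAT0001S00021061. It had 24.7 at 23 h and 21.1 at 14 h, against 5895, 6866 and 5184 at 47, 35 and 32 h, a log2 difference of -8.03 ± 0.21 (SE; limma adjusted p = 0.000521). K_OLAT0000S00000512 had 81.5 and 95.4, against 24069, 22759 and 12563 (-7.75 ± 0.34, SE; limma adjusted p = 0.00273). K_OLAT0000S00003018 had 89.3 and 83.1, against 9432, 11170 and 13333 (-7.02 ± 0.22, SE; limma adjusted p = 0.00108). These 3 are the only ones in which the sides lay more than 64-fold apart downward, and in each the 23 h and 14 h arrays lay within 2-fold of each other. OLAT0001S00021061 and K_OLAT0000S00003018 were also called when the array-number series was a term (limma adjusted p = 0.0313 for both).

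In other probe sets the loss went on after 23 h. K_OLAT0000S00024408 had 263.3 at 23 h and 45.4 at 14 h, against 7555, 9278 and 8833 at 47, 35 and 32 h. OLAT0001S00027034 had 123.3 and 27.0, against 3859, 6357 and 5170. OLAT0001S00002569 had 285.7 and 78.7, against 7104, 8910 and 8051. OLAT0001S00002698 followed with 194.3 and 51.8, against 4483, 5822 and 5091. In these 4 the earlier arrays lay within 2-fold of each other, and most of the fall lay between 32 h and 23 h.

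A few were not flat before. OLAT0001S00019502 had 62.7 and 42.5 on the later arrays, against 7791, 6593 and 2553 at 47, 35 and 32 h, and K_OLAT0000S00018731 had 118.3 and 156.8, against 13747, 11345 and 7687. In both the 32 h array was the lowest of the earlier side. In the last 3 it was the 47 h array. OLAT0001S00019151 had 78.0 and 39.5 at 23 h and 14 h, against 1314, 6027 and 5850 at 47, 35 and 32 h. OLAT0001S00021353 had 31.2 and 17.5, against 500.8, 1465 and 2527. K_OLAT0000S00020545 had 25 and 33.7, against 641.5, 5340 and 1265. Limma adjusted p was at most 0.0326 in these 12, which were picked among the probe sets called.

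The brightest of the downward set by the same mean held on to a clear signal. OLAT0001S00037002 had 2968 and 3745 at 23 h and 14 h, against 17860, 29321 and 25041 at 47, 35 and 32 h (log2 difference -2.82 ± 0.28, SE; limma adjusted p = 0.0126). OLAT0001S00029727 read nearly the same on every array, with 2875 and 3251, against 17770, 29288 and 23814. OLAT0001S00037966 had 4591 and 898.2, against 31314, 25076 and 19914 (limma adjusted p = 0.0541, not passing). Whether the first 2 target 1 transcript was not tested.

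The separated probe sets were placed mostly among dim to middling transcripts. By quartiles of the mean level over the 5 arrays, 1.36% of the lowest, 1.19% of the second, 0.578% of the third and 0.176% of the highest were separated upward. Downward the shares were 0.745%, 0.703%, 0.419% and 0.100% in the same order. The mean level and the separation come from the same arrays, and a 4-fold difference has less room near the top of the scale. The identifiers fall into 2 families, and those starting K_OLAT0000S held 179 upward and 109 downward of 16940 kept (1.06% and 0.643%), against 215 and 126 of 30833 (0.697% and 0.409%) for those starting OLAT0001S. Before the filter the families held 25248 and 38450 probe sets in the same order. They were not compared at matched level. What distinguishes the families is not given in the sources used here. Only 2 separated probe sets, both upward, had fewer than 6 probes.

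Each later array differed from the earlier ones by itself, and 14 h did so in more probe sets than 23 h. Taken alone, 23 h lay at least 4-fold above all 3 earlier arrays in 481 probe sets and below them in 306, (1.01% and 0.641%), and 14 h did so in 1009 and 653 (2.11% and 1.37%). These comparisons share the earlier arrays. Of the probe sets that reached 4-fold above all earlier arrays at 14 h and not at 23 h, 615 in all, the 23 h array already lay 2-fold to 4-fold above them in 258, less than 2-fold above them in 204, and not above them in 153. Downward the corresponding 418 divided into 212, 138 and 68. By single pairs, the 23 h array differed 4-fold from 47 h in 2.89% of probe sets, from 35 h in 5.19% and from 32 h in 3.72%. The 14 h array did so in 5.79%, 7.26% and 5.53%. The shares were highest against 35 h in both and did not fall with the hours between the arrays, which were 24, 12 and 9 for the 23 h array.

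Within the 6-digit series, where the earlier side is the 47 h array alone, both later arrays lay 4-fold above it in 625 probe sets (1.31%) and below it in 533 (1.12%). Against the 35 h and 32 h arrays of the 8-digit series, they lay 4-fold above in 580 (1.21%) and below in 336 (0.703%). Of the 625 above 47 h, 231 did not pass the 4-fold limit against 35 h and 32 h, and of the 580 above 35 h and 32 h, 186 did not pass it against 47 h. Downward these were 298 of 533 and 101 of 336. Upward, 58 of the 231 and 74 of the 186 missed a 2-fold limit there as well, and downward 87 of the 298 and 48 of the 101. The part of the array-number series in the results was not tested beyond these values and the fit that held the series as a term.

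Inside the separated sets the course from 23 h to 14 h was uneven. Of the 394 upward probe sets, 124 (31.5%) were at least 2-fold higher again at 14 h, 263 stayed within 2-fold and 7 were at least 2-fold lower at 14 h. Over all kept probe sets, 3.93% were 2-fold higher and 4.41% 2-fold lower at 14 h than at 23 h. Of the 235 downward ones, 49 (20.9%) were 2-fold lower again at 14 h, 184 stayed within 2-fold and 2 were 2-fold higher. On the log2 scale, the median upward probe set had reached 85.6% of its 14 h difference at 23 h (quartiles 74.6% and 96.2%) and the median downward one 93.6% (80.6% and 104%). The lower of the later arrays had to pass the limit for a probe set to be counted, which holds these shares up. Both sets were also picked by their 23 h and 14 h values. Part of the excess of the 31.5% and 20.9% over the shares of all kept probe sets can therefore be built in.

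**Figure D3:**
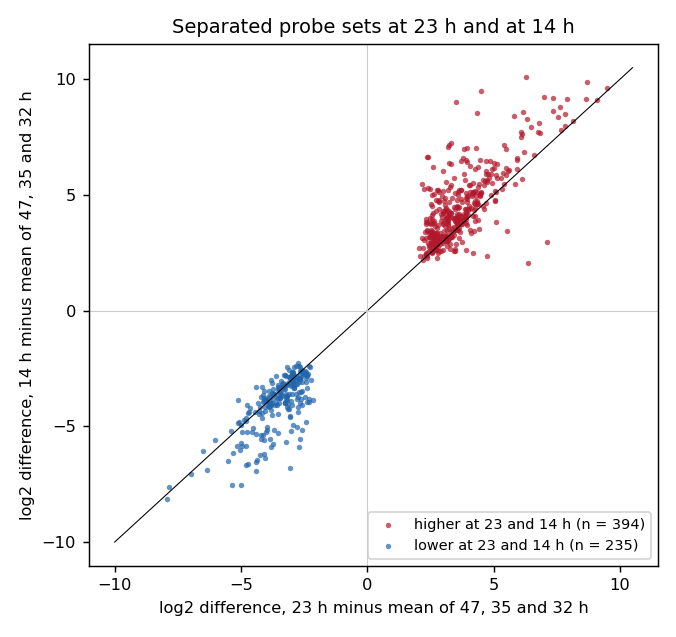
Log2 difference from the mean of 47, 35 and 32 h, at 14 h (vertical axis) and at 23 h (horizontal axis), for the 394 probe sets separated upward and the 235 separated downward, with the line of equal difference. Points off the line towards larger differences at 14 h outnumber the rest, with 124 upward and 49 downward at least 2-fold further at 14 h, against 7 and 2 the other way.

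The steepest step within the later side belonged to K_OLAT0000S00014882. It had 570.1 at 23 h and 25970 at 14 h, against 51.5, 37.0 and 65.3 at 47, 35 and 32 h. K_OLAT0000S00012853 had 737.4 and 23141, against 32.9, 26.6 and 39.4, and OLAT0001S00006875 had 135.9 and 2687, against 27.8, 21.7 and 31.2. At 23 h these 3 had left the earlier level by 4.35-fold to 18.7-fold, with most of the change still to come. Downward, OLAT0001S00017961 had 226.0 and 16.9, against 1794, 2601 and 1409. K_OLAT0000S00019273 gave 317.9 and 35.0, against 1870, 1983 and 2388, and OLAT0001S00015143 gave 640.4 and 86.7, against 5654, 4019 and 2912. A step this steep inflates the spread within the later side, and none of the 6 passed the test (limma adjusted p from 0.0588 to 0.106).

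The 9 probe sets with the opposite course were picked out after their values were seen. OLAT0001S00028644 had 5505 at 23 h and 308.0 at 14 h, against 38.2, 42.8 and 38.5 at 47, 35 and 32 h. OLAT0001S00011942 had 3686 and 187.3, against 46.0, 42.2 and 44.8. Both peaked at 23 h and had come most of the way down by 14 h, and neither passed the test (limma adjusted p = 0.0784 and 0.117). Of the other 7, OLAT0001S00012993, OLAT0001S00003224, K_OLAT0000S00025556, K_OLAT0000S00003812 and K_OLAT0000S00002350 were upward, with 992 to 2024 at 23 h and 186.2 to 627.9 at 14 h. The downward pair was K_OLAT0000S00008853, with 26.3 at 23 h and 56.2 at 14 h, and OLAT0001S00031657, with 46.7 and 113.2.

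The rule keeps out probe sets whose 32 h array was already near the later ones, so the earlier side is given as a description. The 3 earlier arrays lay within 2-fold of each other in 224 of the 394 upward and 137 of the 235 downward probe sets. That share was not counted over all kept probe sets. The median range of the 3 arrays was 0.85 log2 units in the upward set, 0.93 in the downward set and 0.54 over all kept. At 32 h, 38 of the upward set (9.64%) were already at least 2-fold above both 47 h and 35 h, where 0.94% of all kept probe sets were, and 4 were 2-fold below both. Of the downward set, 14 (5.96%) were 2-fold below 47 h and 35 h at 32 h, against 0.749% of all kept, and 1 was above. The median SD of the 3 earlier arrays was 0.45 log2 units in the upward set, 0.48 in the downward set and 0.28 over all kept probe sets. The separated sets were also dimmer, with a median log2 level over the 5 arrays of 9.06 and 9.25, against 10.63 over all kept. The spread was not compared at matched level.

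All 16 probe sets called when the array-number series was a term belonged to the separated sets, which were picked on the same arrays. Besides OLAT0001S00034827, K_OLAT0000S00007135, K_OLAT0000S00022587, K_OLAT0000S00013756 and OLAT0001S00033367, the upward ones included OLAT0001S00035049, which had 32099 and 35694 at 23 h and 14 h, against 94.3, 235.8 and 177.1 at 47, 35 and 32 h. K_OLAT0000S00013845 was the brightest of them on the later arrays, with 51222 and 55758, against 388.0, 780.6 and 502.0. A dimmer group came on and had fallen well below its 23 h and 14 h levels by 2 h. OLAT0001S00024025 had 1150 and 1192, against 25.4, 30.2 and 25.7, and was back at 33.1 at 8 h. K_OLAT0000S00003318, OLAT0001S00014911, OLAT0001S00007009 and OLAT0001S00036477 read 702.2 to 4640 on the later arrays and 19.4 to 115.7 on the earlier ones. They read 169.2 to 604.1 at 8 h and 22 to 107.4 at 2 h. K_OLAT0000S00003318 was still above its earlier arrays at 2 h, with 93 against 29, 39.9 and 35. The remaining downward calls were K_OLAT0000S00016003, with 59.0 and 49.3, against 1442, 701.4 and 668.2, and OLAT0001S00003475, with 55.2 and 63.6, against 1544, 352.2 and 337.0. Not all of the downward calls had also been made without the term.

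**Figure D4:**
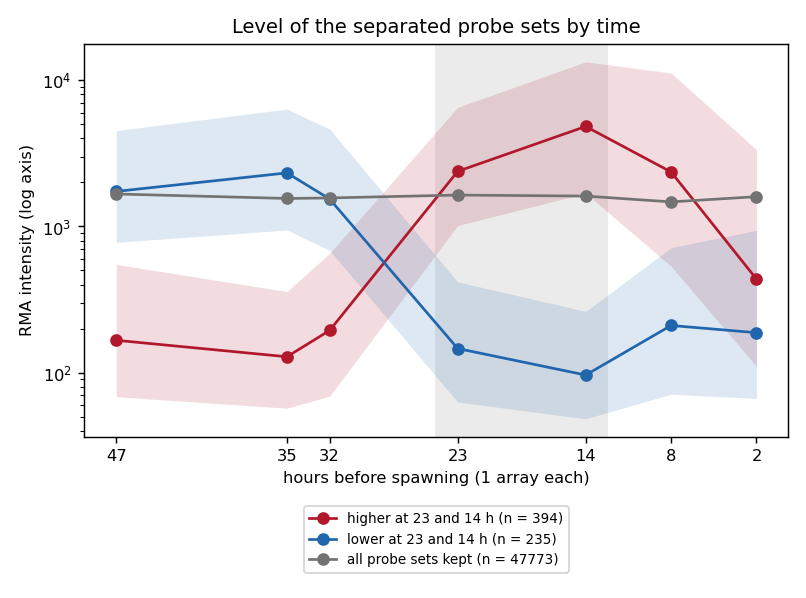
Median RMA intensity (log axis) by hours before spawning for the probe sets separated upward (394) and downward (235), with bands from the lower to the upper quartile, and the median of all 47773 kept probe sets. The grey strip marks the 23 h and 14 h arrays, where the upward set reaches medians of 2384 and 4836 and the downward set falls to 146 and 96.3.

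The arrays at 8 h and 2 h took part in the filter on low values but not in the separation rule, and show the levels of these probe sets later on. With the filter taken over the 5 compared arrays alone, 398 were separated upward and 243 downward, among them 390 of the 394 and all 235. The median intensity of the upward set was 166.5, 128.5 and 194.4 at 47, 35 and 32 h, 2384 and 4836 at 23 h and 14 h, 2361 at 8 h and 437.1 at 2 h. That of the downward set was 1737, 2326 and 1542 at 47, 35 and 32 h, 146.2 and 96.3 at 23 h and 14 h, 210.2 at 8 h and 187.7 at 2 h. The upward set thus lost most of its gain in the median by 2 h, while the downward set remained low at both later times. The 8 h array belongs to the 8-digit series and the 2 h array to the 6-digit series.

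At 8 h, 181 of the 394 upward probe sets (45.9%) lay at or above the lower of their 23 h and 14 h levels, 183 lay between the sides and 30 were back at the earlier level or under it. At 2 h the numbers were 80, 156 and 158. Of the 235 downward probe sets, 90 (38.3%) lay at or below the higher of their 23 h and 14 h levels at 8 h, 125 lay between and 20 were back. At 2 h they were 112, 87 and 36. A return to the earlier level by 2 h was therefore counted in 40.1% of the upward set and 15.3% of the downward set, and the difference between these shares was not tested. At both 8 h and 2 h, 62 upward and 60 downward probe sets kept the level of the later side. In 7 upward and 7 downward probe sets, 8 h or 2 h lay 4-fold past all 3 earlier arrays on the opposite side.

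**Figure D5:**
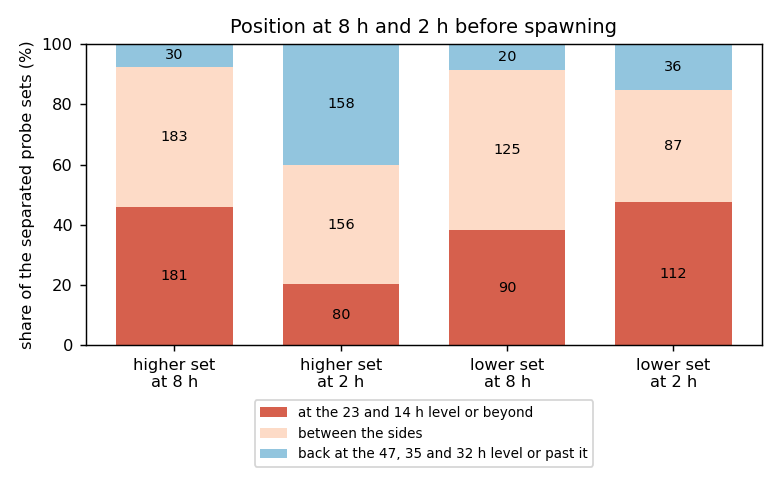
Share of the separated probe sets (394 upward, 235 downward) that lay at the level of 23 and 14 h or beyond, between the sides, or back at the level of 47, 35 and 32 h or past it, at 8 h and at 2 h before spawning, with the number of probe sets in each part. The part back at the earlier level is largest in the upward set at 2 h, with 158 of 394.

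Single probe sets took both courses. OLAT0001S00034827, OLAT0001S00034528 and K_OLAT0000S00007135 remained high, at 49027, 41638 and 47888 at 8 h and 32630, 26473 and 29291 at 2 h. K_OLAT0000S00014882 did so too, at 43617 and 39333. OLAT0001S00011319, after 21282 and 34191 at 23 h and 14 h, read 23329 at 8 h and 87.4 at 2 h, a level within its earlier range. K_OLAT0000S00002529 and K_OLAT0000S00014196 read 27364 and 36602 at 8 h and 607.5 and 702.2 at 2 h. In these 3 the drop lay between 8 h and 2 h. K_OLAT0000S00012853 went down in steps, to 9514 at 8 h and 29.8 at 2 h.

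Among the downward probe sets, OLAT0001S00021061 read 106.4 at 8 h and 27.8 at 2 h, and OLAT0001S00027034 read 32.5 and 59.4. Both remained near the floor of the scale. OLAT0001S00019151, by contrast, was at 178.8 at 8 h and back at 4292 at 2 h, within its earlier range. K_OLAT0000S00019273 had returned by 8 h, at 2010, and stood at 3922 at 2 h. K_OLAT0000S00008853, after 26.3 and 56.2 at 23 h and 14 h, read 17333 at 8 h, above all 3 of its earlier arrays, and 1269 at 2 h.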

How the data were processed

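Intensities were deposited by the authors as RMA expression values, 1 file per array, on a linear scale, per the submitters' processing notes and the file headers. No source used here gives the RMA version or settings. Median intensity over all probe sets was 703, 698 and 682 on the 6-digit arrays at 47, 23 and 14 h. On the 8-digit arrays at 35 h and 32 h it was lower, at 653 and 643. Values were put on the log2 scale, the 25th percentile filter was applied, and the sides were compared by lmFit and eBayes in limma 3.58.1 under R 4.3.3, with 23 h and 14 h on top of the difference and no other term. The number of arrays limits the precision. Other counts used Python 3.11.15 with pandas 2.3.3. Named probe sets were the 12 with the largest mean difference in each direction among those separated and called, the 3 brightest separated ones, and the 3 with the largest step between 23 h and 14 h; the calls made when the array-number series was a term and those further at 23 h were added later. The comparison, its lists and its rules were chosen with earlier results of these data known. Lists of genes and of cell type markers were drawn up but needed gene symbols and were not applied. For the 2 h sample 1 label gives 5 h. Alternatives covered the filter, scaling, offset, variance prior, array-number series, single arrays and the source of the times.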

Additional observations from a re-analysis of the deposited data

How the results depend on the processing

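The source of the times decides the result. If the series table's times are taken, 0 probe sets were called by limma in either direction (4937 at an unadjusted p below 0.05), and 17 were separated upward and 17 downward. Among the 36 named probe sets, 34 then changed sign and none of the 36 was called, the smallest adjusted p over all probe sets being 0.183 (limma). The upward ones turned to log2 differences of -1.64 for OLAT0001S00034827, -1.14 for OLAT0001S00034528, -1.66 for K_OLAT0000S00007135, -2.61 for K_OLAT0000S00013756, -3.64 for K_OLAT0000S00002529, -1.53 for OLAT0001S00014300, -4.29 for K_OLAT0000S00014196, -1.42 for OLAT0001S00034849, -3.67 for K_OLAT0000S00022587, -4.76 for OLAT0001S00011319, -1.35 for OLAT0001S00030650, -1.90 for OLAT0001S00033367, -0.89 for K_OLAT0000S00022766, -0.60 for K_OLAT0000S00014380, -0.0078 for OLAT0001S00018517, -4.59 for K_OLAT0000S00012853 and -2.54 for OLAT0001S00006875. The downward ones turned to 1.39 for OLAT0001S00021061, 0.76 for K_OLAT0000S00000512, 0.85 for K_OLAT0000S00003018, 0.90 for OLAT0001S00019502, 1.24 for OLAT0001S00027034, 1.95 for K_OLAT0000S00018731, 1.06 for K_OLAT0000S00024408, 4.97 for OLAT0001S00019151, 1.79 for K_OLAT0000S00020545, 0.74 for OLAT0001S00002569, 3.40 for OLAT0001S00021353, 0.82 for OLAT0001S00002698, 0.55 for OLAT0001S00037002, 0.57 for OLAT0001S00029727, 0.87 for OLAT0001S00037966, 1.56 for OLAT0001S00017961 and 3.48 for K_OLAT0000S00019273.

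With the times of the single files, none of the 36 changed sign under the alternatives that gave them a value, and 13 fell below the filter at the 50th percentile. The separation rule largely fixes this in advance. All pairs of arrays across the sides already differed by 4-fold in the same direction, so leaving out arrays or probe sets cannot turn the sign. The calls among the 36 depended on the setting. Of the 28 called, 21 lost the call when the array-number series was a term and all 28 on the 6-digit arrays alone. Without the 23, 14, 35 or 32 h array 3, 10, 10 and 7 lost it, and 0 without the 47 h array or under the other alternatives. Without the 47 h array the sides coincide with the array-number series, so calls kept there cannot tell the 2 apart. The called numbers were 923 higher and 726 lower and rested on the arrays used. They were 12 and 4 when the array-number series was a term, and 0 and 0 (5358 at an unadjusted p below 0.05, limma) on the 6-digit arrays alone, which leave 1 residual degree of freedom. Leaving out 1 array gave 100 to 2795 higher and 43 to 1821 lower, and an intensity-dependent robust prior gave 1644 and 1227. Other filters, centring, quantile normalization and the offset of 64 gave 867 to 1276 higher and 673 to 912 lower. The separated counts of 394 and 235 became 204 and 93 with the filter at the 50th percentile, which leaves fewer probe sets, and 625 and 533 on the 6-digit arrays alone. Of the 47773 kept, a 2-fold limit gave 1241 and 910, and a bare lack of overlap 9899 and 11761, where downward exceeded upward. With 2 arrays against 3, a bare lack of overlap is common even without a difference between the sides. Nothing is read from those counts or their direction. Leaving out 1 array gave 430 to 1009 upward and 262 to 653 downward, since fewer arrays had to be cleared. Without the filter the counts were 414 and 246, after centring 367 and 267, and after quantile normalization 384 and 247. No paired analysis was possible because each time point has 1 array and the labels give no replicate numbers. Dim values set the limit on depth: they carry no detection call, so the size of a change to or from the bottom of the scale is uncertain.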
